A study of Drosophila melanogaster with 12 samples.

Results

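The table of gene counts from klp10A RNAi and wild type testes holds many genes that carry no name other than a CG number, the systematic name of a predicted Drosophila gene. Of 6218 such genes with a mean level of at least 1 in wild type, 136 (2.19%) had a mean in klp10A RNAi at least 8-fold below the wild type mean. These 136 genes are called members here. They were chosen by their mean levels in the 3 klp10A RNAi and the 3 wild type libraries. The table lists 7715 CG-number genes in 15367 rows. Levels are counts scaled to a total of 1000000 in each library, over all rows except long terminal repeat elements, CR-number genes and genes whose symbol contains "RNA:". The difference between the genotypes is therefore described for them, and no p-value is given for a member. Of 5305 genes with a name of their own and a wild type mean of at least 1, 63 (1.19%) were past the same limits.

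The klp10A RNAi flies expressed an RNAi construct against klp10A in the germline (nos-gal4>UAS-klp10A TRiP.HMS00920), and the flies they were set against are labelled only as wild type, so whether these carried the driver is not known here. Klp10A is a kinesin that depolymerizes microtubules. Testes came from flies 0 to 2 days old, and 300 pairs of testes were pooled for each library. Ribosomal RNA was depleted before sequencing, and there were 3 mRNA libraries per genotype, described by the study as biological replicates. Another 6 libraries of small RNA were not used here.

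Total counts ranged between 18634687 and 25536724 in klp10A RNAi and between 19929803 and 23316483 in wild type. The rows of the scaling total held 38.5% to 50.1% of the counts in klp10A RNAi and 27.8% to 41.5% in wild type. Klp10A itself averaged 35.5 ± 1.37 in klp10A RNAi and 173 ± 25.6 in wild type (SD, n = 3 each), with every klp10A RNAi library below every wild type library (log2 fold change -2.35, SE 0.16, edgeR adjusted p = 0.00105). The adjusted p was 0.0114 and 0.0174 without klp10A RNAi replicates 1 and 3, above the limit of 0.01 that marks a call here. Genes of spermatocytes and spermatids were present in all libraries. The summed level of 10 spermatocyte genes was 967 to 979 in klp10A RNAi and 557 to 855 in wild type, and that of 17 spermatid genes was 13843 to 16701 in klp10A RNAi and 11160 to 14849 in wild type.

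Few of the members have a name. Of the 136, 135 are protein-coding genes in RefSeq (Release 6 assembly) and only 15 of these now have a symbol other than their CG number. The named ones include relatives of alkaline phosphatases, sodium-coupled solute transporters, acyl-CoA synthetases and redox enzymes. Such enzymes and carriers are abundant in the Malpighian tubules, the excretory organs that move ions and organic solutes into the primary urine, and in the midgut, where trypsin-like and chymotrypsin-like serine proteases digest food. Neither organ is part of the testis. The members were therefore set beside lists of genes typical of these organs and of other tissues.

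Together the members had a summed level of 223, 389 and 277 in klp10A RNAi replicates 1 to 3, against 4762, 6394 and 2658 in wild type replicates 1 to 3. Replicate 2 was the highest library of klp10A RNAi and replicate 3 the lowest of wild type. CG2839 alone made up a large part of the sum in wild type replicate 2. Without it the sums were 154, 346 and 210 in klp10A RNAi and 4588, 4126 and 2558 in wild type, where replicate 1 in place of replicate 2 was then the highest. In 130 of the 136 members every klp10A RNAi library lay below every wild type library, and in 6 the genotypes overlapped. Among all 6218 CG-number genes the same separation was seen in 14.3%. The edgeR fit tested 99 of the members and called 70 of them lower, where 1.83% of all 12100 rows tested were called lower. Without klp10A RNAi replicates 1, 2 or 3 it called 7, 27 and 0 of 120 members tested, while the count was 72, 92 and 71 without wild type replicates 1, 2 or 3. In the same order it called 7, 43 and 0, and 180, 346 and 189, of the 12231 to 12289 rows tested lower. The rule used this contrast, so nothing is read from these counts.

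Many members had few counts in klp10A RNAi. In 50 of them no klp10A RNAi library held more than 3 counts, and 7 were at 0 in all of these libraries. The remaining 86 had a median fold of 14.4. For the 50, the fold against a floor of 3 counts per library was at least 3.25 to at least 82.3. In wild type the members' median level was 8.89, 88 had a mean of at least 5 and 19 a mean of at least 50. At the limit of the rule, CG3987, CG31106 and CG3739 were just inside at 8.11-fold, 8.21-fold and 8.67-fold. CG32669, CG6602 and CG13086 were just outside at 7.97-fold, 7.94-fold and 7.89-fold.

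**Figure D1:**
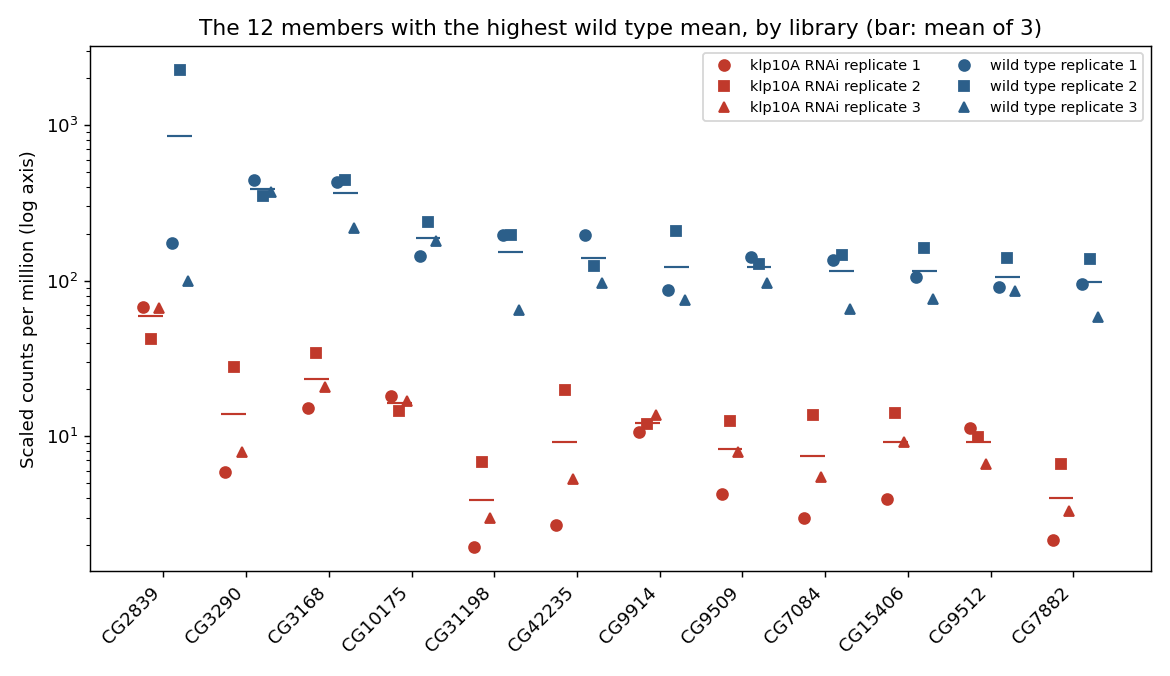
Level in scaled counts (log axis) of the 12 members with the highest wild type mean in the 3 klp10A RNAi libraries (red) and the 3 wild type libraries (blue), with a bar at each mean of 3. CG2839 reached 2268 in wild type replicate 2 alone, and the klp10A RNAi replicate 2 point (square) is the highest red point for 8 of the 12 genes.

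Among the members with the highest wild type means, several encode enzymes or carriers. CG3290, which RefSeq names Alp2, an alkaline phosphatase, had levels of 5.89, 27.7 and 7.93 in klp10A RNAi replicates 1 to 3, against 442, 351 and 372 in wild type replicates 1 to 3. Its wild type values lay close together (389 ± 47.2, SD, n = 3), and klp10A RNAi replicate 2 was the highest library of that genotype. CG42235, or kumpel, a member of the SLC5 family of sodium-coupled solute carriers, showed the same order within klp10A RNAi. It had 2.68, 19.8 and 5.29 there and 196, 125 and 97.2 in wild type. CG3168, whose RefSeq synonym Slc22a18 places it among the SLC22 carriers, had 15.1, 34.3 and 20.6 in klp10A RNAi, against 428, 445 and 218 in wild type. For all 3 genes the lowest wild type value was well above the highest klp10A RNAi value.

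CG9509, or fiz, an oxidoreductase of the GMC family, had 4.29, 12.6 and 7.93 in klp10A RNAi and 141, 127 and 96.8 in wild type. CG9512, the next gene on the chromosome, had 11.3, 9.88 and 6.61 in klp10A RNAi, against 90.8, 139 and 85.5 in wild type. The neighbours thus differed in their order within klp10A RNAi, where replicate 2 was highest for CG9509 and replicate 1 for CG9512. CG9914, or Had1, a hydroxyacid dehydrogenase (synonym CRYL1), was even in klp10A RNAi with 10.7, 11.9 and 13.8, while its wild type levels were 86.9, 208 and 75.2. Wild type replicate 2 was well above the other libraries for this gene.

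The other members of this set have no annotated name. CG31198 had 1.93, 6.82 and 2.97 in klp10A RNAi and 196, 198 and 64.9 in wild type, so that replicate 3 was the low wild type library. CG7084 had its highest value in replicate 2 of either genotype, with 3.0, 13.8 and 5.51 in klp10A RNAi and 136, 146 and 65.4 in wild type. So did CG15406 (3.97, 14.2 and 9.25 in klp10A RNAi, against 106, 163 and 76.8 in wild type) and CG7882 (2.14, 6.62 and 3.30 in klp10A RNAi, against 95.4, 139 and 58.5 in wild type). CG10175 differed, with even levels of 18.1, 14.6 and 16.7 in klp10A RNAi and 145, 240 and 180 in wild type.

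CG2839 stood apart from all other members. Its level was 68.3, 42.3 and 66.6 in klp10A RNAi, against 174, 2268 and 99.99 in wild type. Wild type replicate 2 held 89.2% of its wild type sum. The mean was 14.3-fold lower in klp10A RNAi with all libraries and 2.32-fold lower without wild type replicate 2, which takes it out of the rule. Of 9 matched genes of the female post-mating response network, which are made in the male accessory gland, 3 also had over 50% of their wild type sum in that library (CG17575, lectin-46Ca and lectin-46Cb) and 2 were lowest there (CG9997 and CG30488). CG17575 had 554, 390 and 561 in klp10A RNAi and 369, 1247 and 556 in wild type, and lectin-46Cb had 325, 271 and 325 in klp10A RNAi and 264, 1185 and 364 in wild type. Some genes of other lists were also over 50% in wild type replicate 2, though most genes of those lists were not. Among them were Acp32CD of accessory gland (52.1%), TpnC73F of muscle (56.3%), eater of hemocytes (55.4%) and Sox100B of hub and cyst cells (55.4%). The trait was thus not particular to the post-mating list, and its share over all genes was not determined. What the post-mating genes and CG2839 share was not tested.

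The members with the largest folds, among those with a wild type mean of at least 5, were all highest in wild type replicate 1. CG31343 had 0, 0.41 and 0.22 in klp10A RNAi and 87.5, 14.9 and 6.78 in wild type, a 174-fold difference of means that rests on 6 counts in klp10A RNAi. CG10911 had 0.11, 0.20 and 0.22 in klp10A RNAi, against 52.5, 12.9 and 13.3 in wild type, at least 82.3-fold lower. CG14499 had 0, 0.31 and 0.11 in klp10A RNAi, against 42.1, 19.0 and 6.78 in wild type, at least 70.9-fold lower. Wild type replicate 1 was far above the other wild type libraries for each of these genes. CG10472, which RefSeq lists as the serine protease SP78, had 0.96, 0.51 and 1.32 in klp10A RNAi and 104, 22.6 and 9.08 in wild type (48.4-fold). CG14120 had 0.11, 0.10 and 0.77 in klp10A RNAi and 19.9, 15.97 and 5.45 in wild type (42.2-fold), and its wild type replicates 1 and 2 lay closer together.

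Wild type replicates varied more for the members than for other CG-number genes at like levels. At a wild type mean of at least 50 the median coefficient of variation was 37.9% for 19 members and 18.6% for 1884 other CG-number genes. At means of 5 to 50 it was 49.5% for 69 members and 17.6% for 3104 others, and at means of 1 to 5 it was 66.5% for 48 members and 25.7% for 1094 others. The members' values ran from 9.0% for CG33282 to 173% for CG16826, with 21 members over 100% and 11 under 20%. The rule favours genes with a high value in any wild type library, and these medians were not tested.

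At a wild type mean of at least 5, the most even members were CG33282 (10.6, 11.3 and 9.44 in wild type), CG18473 (19.4, 17.6 and 16.1), CG3290, CG31106 (43.2, 39.6 and 33.8) and CG11659 (8.91, 9.51 and 7.38). In klp10A RNAi these had 0.21, 1.02 and 0.11 (CG33282), 0.86, 2.04 and 1.10 (CG18473), 3.75, 5.50 and 4.96 (CG31106) and 0.75, 1.43 and 0.66 (CG11659). Replicate 2 was the highest klp10A RNAi library for all 5. CG11659 and its neighbour CG6300 are named Acsx1R and Acsx1L, of the acyl-CoA synthetase family, and CG6300 had 0.54, 1.53 and 0.55 in klp10A RNAi, against 9.57, 10.8 and 8.23 in wild type.

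At the other end were members seen almost solely in 1 wild type library. CG16826 had all of its 70 wild type counts in replicate 1, and CG31041 and CG32633 had 88.5% and 85.9% of their wild type sum there. After CG2839, the largest shares in wild type replicate 2 were those of CG31562 (63.7%, on 25 wild type counts in all, and a pseudogene in RefSeq) and CG14195 (58.2%). CG14195 had 3.22, 6.31 and 4.85 in klp10A RNAi, against 28.3, 77.1 and 27.1 in wild type. In replicate 3 they were those of CG6277 (48.4%), CG31199 (48.3%) and CG6271 (45.9%), with no more than 42 counts in that library. CG6277 and CG6271 lie in 1 run of neighbouring genes.

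**Figure D2:**
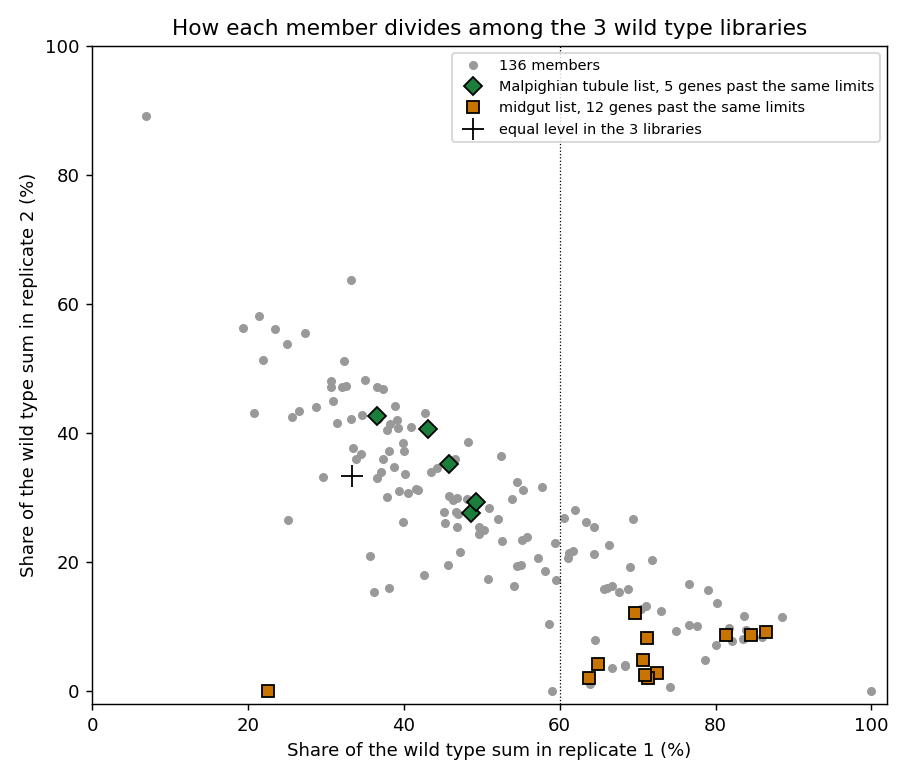
Share of each gene's wild type sum held by replicate 1 (x axis, %) and by replicate 2 (y axis, %), for the 136 members (grey), 5 Malpighian tubule list genes (green diamonds) and 12 midgut list genes (orange squares) past the same limits. The tubule genes lie at 36.6% to 49.2% on the x axis and 11 of the 12 midgut genes at 63.8% to 86.5%, with Jon25Bi at 22.6%. Midgut list genes not past the limits are not drawn: Jon25Biii had 71.3%, and Amy-d, Amy-p, LysB, lab and LysP had 27.3% to 42.1%.

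Wild type replicate 1 was the highest wild type library for 96 members (70.6%), replicate 2 for 35 (25.7%) and replicate 3 for 5 (3.68%). Over all 6218 CG-number genes the same shares were 38.5%, 37.6% and 23.9%. The median share of the wild type sum in replicate 1 was 47.7% for members and 33.7% for other CG-number genes. It was over 60% for 43 members (31.6%), as against 0.345% of the other CG-number genes. The limit of 60% was chosen after the values had been seen. The rule used the mean of these same wild type libraries and favours genes with a high value in any of them. Without wild type replicate 1, 30 members were lost. The shares of members and of other genes are therefore not like for like, and their difference was not tested.

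The genes on either side of that limit also differed in how klp10A RNAi libraries were ordered. Of the 43 members over 60%, 14 had at least 10 counts over the klp10A RNAi libraries, and replicate 2 was the highest of these libraries in 2 of them (14.3%). Of the 93 at most 60%, 60 had at least 10 counts, and replicate 2 was the highest in 52 (86.7%). Replicate 2 held a median of 30.1% of the klp10A RNAi sum in the 14 genes (quartiles 26.3% and 33.3%) and of 53.2% in the 60 genes (quartiles 44.99% and 59.6%). Among 6065 other CG-number genes with at least 10 counts it held 33.6%, and was the highest library in 43.3%. With a limit of 50% the shares of genes highest in klp10A RNAi replicate 2 were 40.9% above and 86.5% below, and with 70% they were 14.3% and 79.1%. All of the 14 genes but CG13492 had at most 33 klp10A RNAi counts in all. CG33127 had 4, 4 and 4 counts and CG8997 had 6, 5 and 5. Which library is highest is uncertain for such genes. Some of the 60 genes had as few counts, such as CG33282 with 13 in all.

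The summed level of the 43 members was 19.8, 19.1 and 19.1 in klp10A RNAi and 878, 181 and 173 in wild type. Its high value in wild type replicate 1 follows from the limit that chose these genes. In klp10A RNAi 25 of the 43 were at or under the floor of 3 counts in each library. CG13492 alone had 8.25, 6.42 and 5.84 there. The summed level of the 93 members was 203, 369 and 257 in klp10A RNAi and 3884, 6213 and 2485 in wild type. Without CG2839 these were 135, 327 and 191 in klp10A RNAi, against 3710, 3946 and 2385 in wild type. Of the 93 members, 9 had over 50% of their wild type sum in replicate 2. Of the 8 of these with at least 10 klp10A RNAi counts, 4 were highest in klp10A RNAi replicate 2. CG2839, CG6055 (3.75, 2.55 and 5.07 in klp10A RNAi, against 39.2, 91.7 and 47.6 in wild type) and CG9914 were among those that were not.

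**Figure D3:**
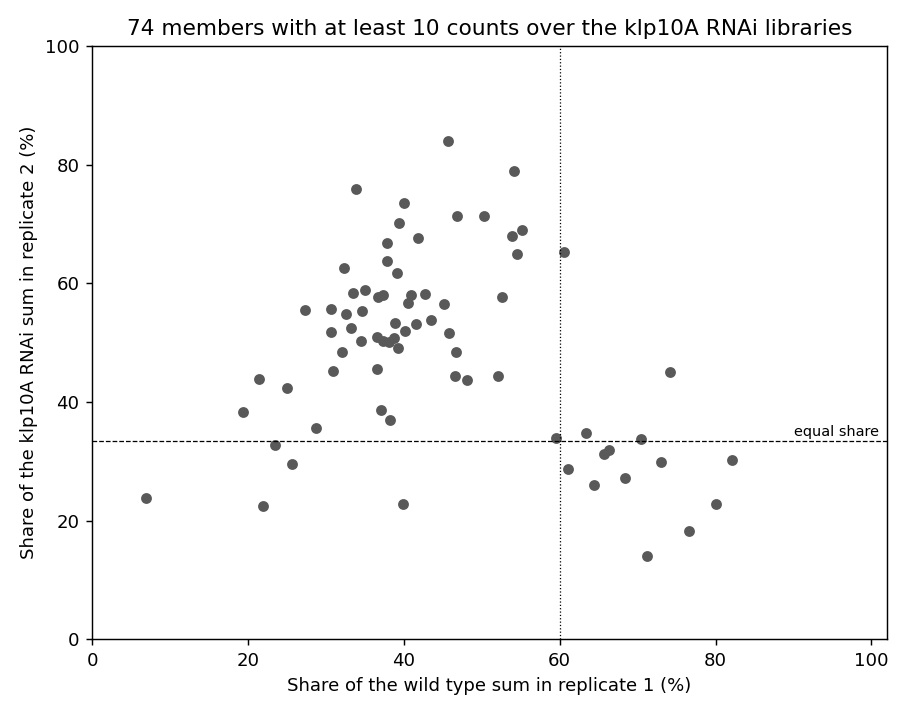
Share of the wild type sum in replicate 1 (x axis, %) and share of the klp10A RNAi sum in replicate 2 (y axis, %) for the 74 members with at least 10 klp10A RNAi counts; the dotted line marks 60% and the dashed line an equal share. Right of the dotted line 2 of 14 genes were highest in klp10A RNAi replicate 2, left of it 52 of 60. All of the 14 but CG13492 had at most 33 klp10A RNAi counts, so their order is uncertain.

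Among the listed genes, those past the same limits came from 2 of the 14 lists. The 63 genes with a name of their own past these limits include genes in no list, which were not assigned to a tissue. In the Malpighian tubule list 5 of 12 genes were past them, and in the midgut list 12 of 18. In the other 12 lists it was 0 of 125 genes. Some of these had a wild type mean under 1 and so could not pass. Among them were Lsp1alpha, Fbp1, Fbp2, to and fit of fat body, and ninaE, trp, Arr2, inaC and Rh3 of photoreceptors. No listed gene is a member. The only listed genes with a CG number that were matched, 6 of the post-mating list, were 1.27-fold to 1.47-fold lower in klp10A RNAi. The lists were written with earlier results of these data known. In bulk tissue, fewer cells of a type and less RNA per cell cannot be told apart.

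The tubule genes past the limits were Uro, Irk3, Oatp58Da, Oatp58Db and Oatp58Dc. Uro, urate oxidase, had 1.82, 7.23 and 1.43 in klp10A RNAi and 69.97, 39.6 and 34.3 in wild type (log2 fold change -3.82, SE 0.56, edgeR adjusted p = 0.00706). Oatp58Dc, an organic anion transporter, had 1.5, 5.80 and 1.65 in klp10A RNAi, against 91.3, 106 and 51.9 in wild type (log2 fold change -4.83, edgeR adjusted p = 0.00226). Irk3, an inward rectifier potassium channel, had 0.75, 3.77 and 1.65 in klp10A RNAi, against 36.4, 21.7 and 15.9 in wild type. Replicate 2 was the highest klp10A RNAi library for all 5 genes and held 48.3% to 69.0% of their klp10A RNAi sum, a range that includes the median of the 60 members above. Their wild type sum lay at 36.6% to 49.2% in replicate 1. The list genes not past the limits were mixed in their klp10A RNAi order. Replicate 2 was not the highest klp10A RNAi library for Irk2 (35.4% of its klp10A RNAi sum), Drip (25.2%) and Cyp4e3. It was the highest for capaR (45.6%), Lkr (48.3%), NtR (40.2%) and ZnT35C (35.8%).

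Not all of the tubule list was lower in klp10A RNAi. EdgeR tested 12 of its genes, called 6 lower (the 5 above and Irk2) and 1 higher, and their median log2 fold change was -2.32, where that of all rows tested was 0.01. The gene called higher was the cytochrome P450 gene Cyp4e3, with 67.1, 27.0 and 65.1 in klp10A RNAi and 5.90, 7.89 and 8.84 in wild type (log2 fold change 2.74, edgeR adjusted p = 0.00422). The summed level of the list was 202 to 248 in klp10A RNAi and 391.8 to 512 in wild type, and no gene of it was at 0 in any library. No gene of the list was called lower without klp10A RNAi replicate 1 or 3, 2 were without replicate 2, and 4 to 6 with 1 wild type replicate left out. Cyp4e3 was called without replicate 2 of either genotype but not without any other library (adjusted p = 0.0125 to 0.0244).

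The midgut genes past the limits were 6 trypsins, 5 Jonah serine proteases and the maltase Mal-A1. AlphaTry had 0.96, 0.71 and 0.55 in klp10A RNAi, against 107, 4.13 and 36.3 in wild type (edgeR adjusted p = 0.0181). Mal-A1 had 0.86, 0.92 and 1.87 in klp10A RNAi, against 119.9, 7.89 and 57.0 in wild type (edgeR adjusted p = 0.0129). Wild type replicate 1 was the highest library for both, and replicate 2 was nearer to klp10A RNAi than to replicate 1. Jon65Aiv had 0.32, 0.10 and 0.33 in klp10A RNAi and 47.4, 8.25 and 12.5 in wild type, and was the 1 gene called lower among the 13 of the list tested in edgeR (adjusted p = 0.00638). Without klp10A RNAi replicates 1, 2 or 3 it was not called (adjusted p = 0.0406 to 0.0470), and without wild type replicates 1 and 2 there were 4 and 7 calls in the list, alphaTry (adjusted p = 0.00112) and Mal-A1 (adjusted p = 0.000351) among those 7. Jon25Bi was at 0 in wild type replicate 2 and in klp10A RNAi replicate 2, thetaTry in klp10A RNAi replicates 1 and 3, and epsilonTry in all 3 klp10A RNAi libraries. The amylase genes Amy-p and Amy-d, also of this list, were 1.77-fold and 1.80-fold lower in klp10A RNAi. The homeobox gene lab, of the same list, was higher in every klp10A RNAi library (3.97, 3.97 and 4.41) than in any wild type library (1.97, 1.44 and 2.06), but was not called (edgeR adjusted p = 0.0314). The summed level of the list was 497 to 649 in klp10A RNAi and 1152 to 1362 in wild type.

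In the other lists the summed levels of the genotypes were nearer to each other. They were 6617 to 8795 in klp10A RNAi and 8672 to 12453 in wild type for accessory gland, 3904 to 4031 and 4229 to 5856 for ejaculatory duct and bulb, 106 to 131 and 126 to 179 for fat body, 1409 to 1778 and 1625 to 3811 for the female post-mating response network, and 1875 to 2768 and 3234 to 3441 for muscle. They were 202 to 264 in klp10A RNAi and 142 to 163 in wild type for hemocytes, 198 to 213 and 213 to 281 for hub and cyst cells, 47.9 to 51.9 and 62.5 to 70.9 for neurons, 59.5 to 64.8 and 73.0 to 79.7 for photoreceptors, and 215 to 232 and 164 to 185 for spermatogonia. Of 111 genes of these lists and the spermatocyte and spermatid lists tested in edgeR, 0 were called lower and 1 higher, the hemocyte gene Pxn. At an unadjusted p under 0.05, 32 were lower and 15 higher. DESeq2 called 11 lower, 7 of them in the muscle list, and 3 higher. Of the photoreceptor list, Rh3 was at 0 in all 6 libraries. The part of any of these tissues in the levels of the members was not tested.

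RefSeq synonyms gave 2 groups among the members that the rule had not used. A code SP or SPH, given to serine proteases and their non-catalytic homologs, was carried by 13 members, or 12.5% of the 104 CG-number genes with such a code and a wild type mean of at least 1. The share of the wild type sum in replicate 1 was 25.2% to 84.0% for these (median 66.3%), and 12 of the 13 were highest in that library. In klp10A RNAi 8 of the 13 had at most 3 counts in each library. CG7542 (SP71) had 0, 0.10 and 0 in klp10A RNAi and 9.96, 0.18 and 5.45 in wild type. CG30031 (SP6) had 13, 4 and 10 counts in klp10A RNAi and 382, 8 and 155 in wild type, and gammaTry, a near-identical gene, had 14, 4 and 10 counts and 383, 8 and 155, so reads of the pair may have been shared and the level of either is uncertain.

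A code of the form Dro, used for ecdysteroid kinase-like genes, was carried by 8 members, or 18.6% of 43 such CG-number genes. Their share in wild type replicate 1 was lower, at 33.2% to 55.8% (median 39.9%), and 4 were highest in that library. The 6 with at least 10 klp10A RNAi counts were all highest in klp10A RNAi replicate 2, and CG31087 and CG31562 had 6 counts and 1 count in that genotype. CG10513 had 6.0, 10.49 and 6.50 in klp10A RNAi, against 81.4, 105 and 36.3 in wild type. CG11878 had 0.86, 3.46 and 1.65 in klp10A RNAi, against 51.4, 49.7 and 36.8 in wild type. CG10560 had 0, 2.34 and 1.10 in klp10A RNAi, against 47.3, 26.2 and 14.4 in wild type. The genotypes did not overlap in any of these 3 genes.

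Other members with a symbol fell on either side as well. CG13905 (mat) had 0.11, 5.70 and 2.31 in klp10A RNAi and 40.6, 32.1 and 30.5 in wild type. CG13704 (hoka), a membrane protein of the smooth septate junctions of midgut and Malpighian tubule cells, had 0.21, 0.51 and 0.44 in klp10A RNAi and 5.50, 3.41 and 2.54 in wild type. CG1139 (acs) had 0.43, 1.22 and 0.55 in klp10A RNAi and 10.7, 21.9 and 6.78 in wild type. In contrast to these, CG5804 (Acbp5), an acyl-CoA binding protein, had 0, 0.10 and 0 in klp10A RNAi and 10.5, 1.26 and 1.09 in wild type. CG10592 (Alp10) and CG5150 (Alp9) are neighbouring alkaline phosphatase genes, and unlike Alp2 they had 68.4% and 64.5% of their wild type sum in replicate 1. CG10592 had 0.43, 0.41 and 0.66 in klp10A RNAi and 9.57, 0.54 and 3.87 in wild type, and is 1 of the 6 members whose genotypes overlapped.

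**Figure D4:**
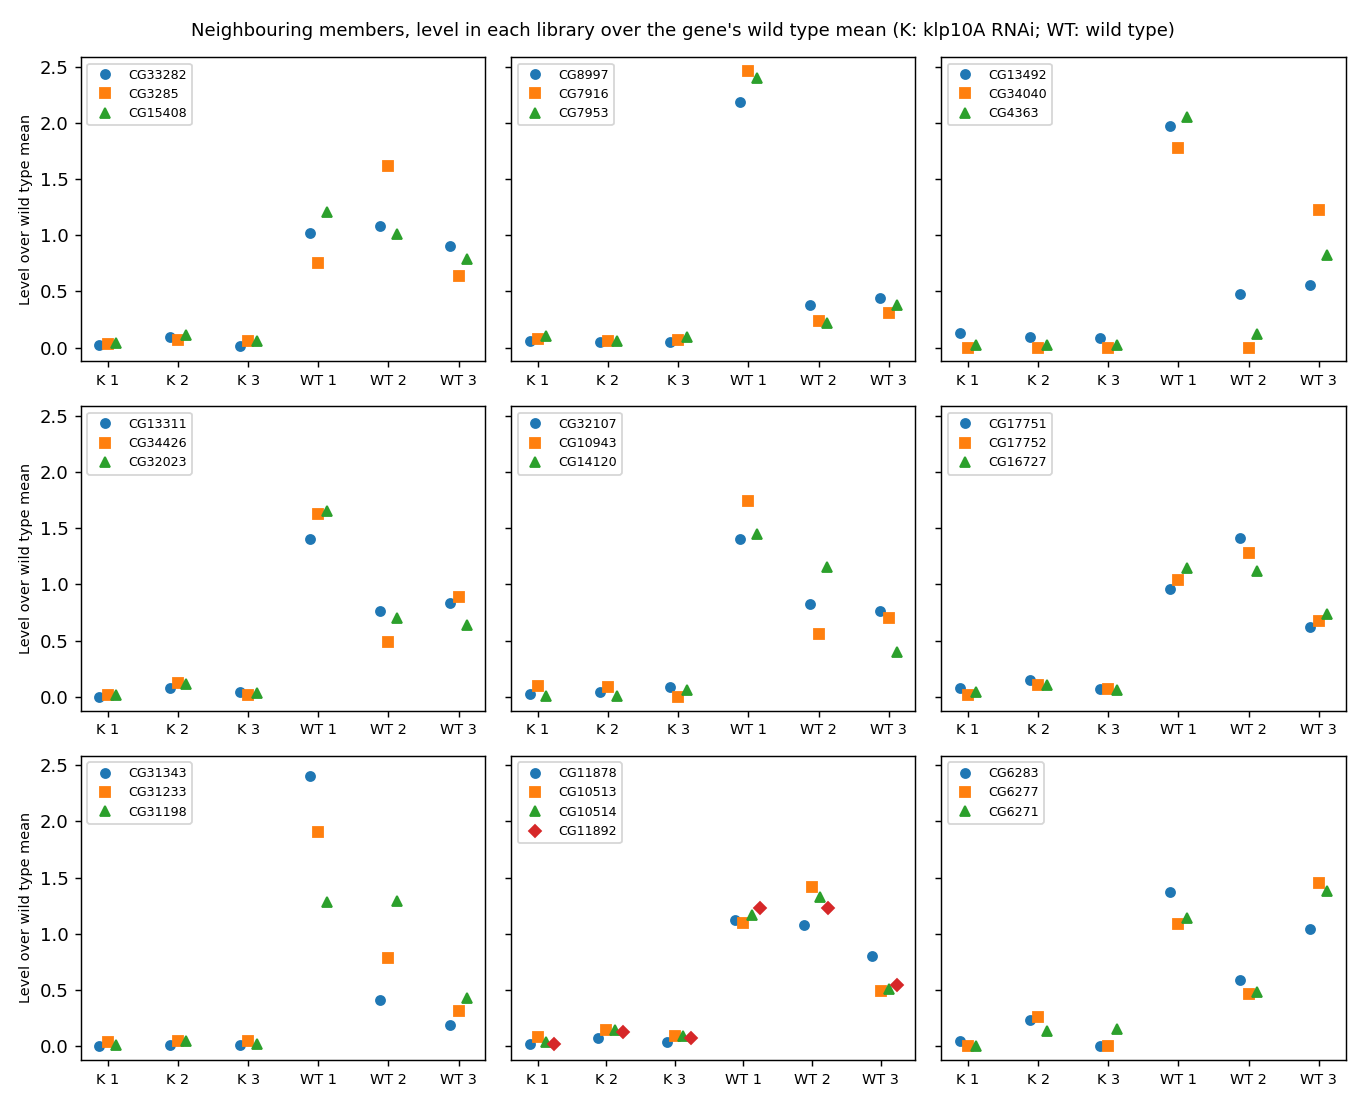
Level of each member in each library over its wild type mean, for the 9 runs of 3 or more members that are neighbouring protein-coding genes (K, klp10A RNAi; WT, wild type; numbers are replicates). Wild type replicate 1 stands far above the other libraries for all 3 genes of the run CG8997, CG7916 and CG7953, while the run of 4 (CG11878, CG10513, CG10514 and CG11892) has its wild type points closer together.

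Many members lay side by side. In the order of protein-coding genes in RefSeq, 52 of 135 placed members (38.5%) were next to another member, whereas 88 of 5940 other CG-number genes (1.48%) were next to a member. The 52 formed 21 runs, 12 of 2 genes, 8 of 3 and 1 of 4. Neighbouring members are not independent, since tandem copies can share sequence, and the alignment kept reads with up to 100 alignments. In 10 runs all members had at most 60% of the wild type sum in replicate 1, in 4 all had more, and 7 runs were split. The run CG8997, CG7916 and CG7953 had 73.0%, 82.1% and 80.1% there. In the run CG31343, CG31233 and CG31198 the shares were 80.2%, 63.4% and 42.8%, so that neighbours with very different wild type order can both be members. The 4 genes CG11878, CG10513, CG10514 and CG11892 all carry Dro codes and had shares of 36.5% to 40.9%.

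**Figure D5:**
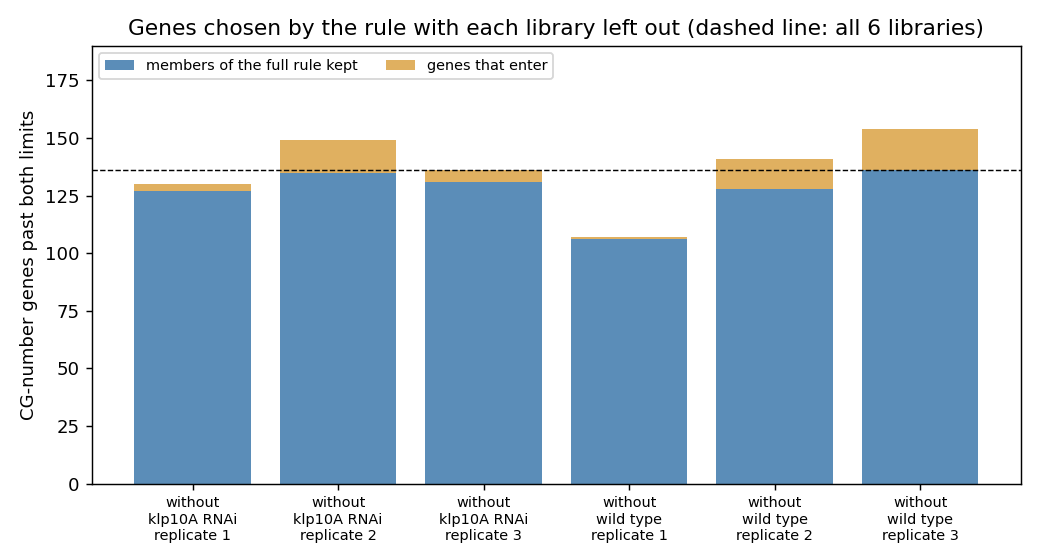
Number of CG-number genes past both limits when each library is left out, divided into the members of the full rule (blue) and genes that enter (orange); the dashed line marks the 136 members. The count is lowest, 107, without wild type replicate 1 and highest, 154, without wild type replicate 3.

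Which genes are members depended on single libraries to a different degree. Without wild type replicate 1 the rule found 107 genes, of which 106 were members, so 30 members were lost. CG7916 was 3.98-fold and CG13492 4.94-fold lower in klp10A RNAi without this library, and CG16826 was at 0 in the other wild type libraries. Some lost members stayed more than 8-fold lower and missed only the limit on the wild type mean. CG17475 (12.3-fold) and CG43349 (14.2-fold) were among these, each with 1 klp10A RNAi count in all. Without wild type replicate 2 the rule found 141 genes and 8 members were lost, CG2839 and CG9914 among them. Without wild type replicate 3 it found 154 genes and no member was lost. Leaving out klp10A RNAi replicates 1, 2 or 3 gave 130, 149 and 136 genes, with 127, 135 and 131 of the members.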

How the data were processed

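Testes of klp10A RNAi and wild type flies were compared by rRNA-depleted RNA-seq in 6 libraries, 3 per genotype as the sample labels give it. Per the labels and the study's methods, the authors aligned reads to dm3 with STAR 2.6.0a, kept reads with up to 100 alignments and counted them on genes and transposable elements with TEtranscripts. The deposited values were used as counts, since they are whole numbers with unequal sums per library, although the sample descriptions call them normalized. Whether counting used strand is not given in the sources used here. Small RNA tables were not used.

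For levels, counts were scaled to 1000000 per library over rows other than the 1123 that end in :LTR, are CR plus digits or contain RNA:. A count of at most 3 in a library was taken as the floor, and a fold against klp10A RNAi libraries that were all at the floor is given as a lower bound. All rows were tested with edgeR 4.0.16 in R 4.3.3 (TMM over all rows, filterByExpr by genotype, quasi-likelihood F-test, Benjamini-Hochberg adjustment over all rows tested, adjusted p under 0.01). P-values measure the spread between pooled libraries. Alternatives were DESeq2 1.42.0, other scaling, no filter on low counts, a replicate block, other limits of the rule and leaving out each library.

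The members and the 14 gene lists were chosen with earlier results of these data known. Of 174 listed symbols, 19 could not be matched. Genes named are the 12 members with the highest wild type mean, the 5 with the largest fold at a mean of at least 5, 3 on either side of the limit, 3 with the largest share in each wild type library and the 5 most even at a mean of at least 5. Families could not be grouped by protein sequence here. Other members, and the share limit of 60% with its alternatives, were chosen after their values were seen. Names, codes and neighbours come from the RefSeq table of GCF_000001215.4, Release 6, which is another build than that of the counts, so that no coordinates are given. It held 135 members by locus tag and 1 by synonym.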

Additional observations from a re-analysis of the deposited data

How the results depend on the processing

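No result recomputed under an alternative changed from called in 1 direction to the opposite sign. CG16826 did reverse in level: without wild type replicate 1 its mean was 0 in wild type and 0.10 in klp10A RNAi. The 221 rows called lower became 667 with the DESeq2 Wald test, 95 with a replicate block and 0 to 346 when each library was left out, and the 24 called higher became 117, 3 and 1 to 43. The members called lower, 70 in the edgeR fit, became 122, 44 and 0 to 92. The count of 0 was seen without klp10A RNAi replicate 3. In that setting 2210 of all 12248 rows tested had an unadjusted p under 0.05, and so did all 120 members tested. The rule chose the members by this contrast, so nothing is read from that. Members called lower were 7 and 27 without klp10A RNAi replicates 1 and 2, and 92 without wild type replicate 2. Whether the replicate numbers pair the samples is not known here. In their deviations from the genotype means, same-numbered libraries had correlations of -0.31, -0.43 and -0.11, and other pairs -0.36 to 0.48. With 3 libraries per genotype these values cannot decide it. Of the tubule list 6 genes were called lower in the edgeR fit, 9 with DESeq2, 2 with the replicate block, 0, 2 and 0 without klp10A RNAi replicates 1, 2 and 3, and 4, 6 and 5 without wild type replicates 1, 2 and 3. Of the midgut list it was 1 gene, 12 with DESeq2, 3 with the block, 2 with no filter on low counts, 0 without any klp10A RNAi replicate, and 4, 7 and 1 without wild type replicates 1, 2 and 3. The number of members, 136, was 89 with scaling over all rows, 115 with TMM, 210 and 71 with limits of 4-fold and 16-fold, 148 and 88 with wild type means of at least 0.5 and 5, and 107 to 154 when each library was left out. Of the 47 members lost with scaling over all rows, 25 missed only the limit on the wild type mean, 20 only the fold limit and 2 both, while all 24 lost with TMM missed only the limit on the wild type mean. The members highest in wild type replicate 2 were 21 in place of 35, and in replicate 3 were 15 in place of 5, with scaling over all rows. The median log2 ratio of klp10A RNAi to wild type over all rows tested was 0.07 with the scaling used for levels, 0.01 with TMM and 0.50 with scaling over all rows. The share of genes highest in klp10A RNAi replicate 2 was 14.3% above the 60% limit and 78.3% below it with scaling over all rows, and 14.3% and 86.7% with TMM, alternatives chosen after seeing the data. The cause of these shifts was not tested. With at most 3 counts per klp10A RNAi library in 50 members, depth sets only a lower bound on their folds.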
